A study of Rattus with 6 samples.

Results

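The zinc finger genes described here are those whose symbol in the deposited table starts with Zfp and a digit, with Zfp36 left out. The rule found 224 genes of the 12801 in the table, which is 1.75% of them, and these genes had 1092 of the 118147 listed exons. The table came from polyadenylated RNA of RC-4B/C, a cell line from a rat pituitary adenoma. There were 3 libraries of cells treated with aspirin (acetylsalicylic acid, labelled ASA), which blocks the cyclooxygenases, and 3 of cells given dimethyl sulfoxide (DMSO), the solvent, as the control. The labels give no genotype difference, dose or duration for either group. Whether separate cultures stand behind the 3 libraries of each treatment is not stated, so each p-value measures only the spread between these libraries.

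Most Zfp symbols name proteins with tandem C2H2 zinc fingers, short loops held by a zinc ion that read DNA, and many of them also carry a KRAB domain. A KRAB domain binds Trim28, also called KAP1, which brings the histone methyltransferase Setdb1, heterochromatin protein 1 and the NuRD deacetylase complex to silence retroelements and imprinted regions. Most C2H2 fingers of such a gene are encoded in a long final exon, and the genes lie in clusters that arose by duplication. The prefix is a naming rule and not a protein class: Zfp36l1, Zfp36l2 and Zfp36l3 encode CCCH proteins that bind AU-rich messenger RNA, Zfp185 encodes a LIM protein, and others act in ribosome assembly or on the mitotic spindle. By symbol, 217 of the 224 genes were found in the RefSeq gene table, 215 as protein coding and 2 as pseudogenes.

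ASA replicate 2 stood apart from the other 5 libraries. The scatter of exon deviations from DMSO around their gene's median, a median absolute deviation on the log2 scale, was 0.643 in ASA replicate 2 and between 0.130 and 0.159 in the others. It had 497 exons with 0 reads, where the others had 4 to 13, and 66492446 reads in the listed exons, where the others had 82189703 to 94486066. Markers of a pituitary line were present in part: Pou1f1, the transcription factor of the prolactin, growth hormone and thyrotropin lineages, was at 584 to 804 RPKM (reads divided by the kilobases of listed exon and by the depth in units of 1000000 reads). Prl, the prolactin gene, was at 14037 to 62170 RPKM. Cga, the shared subunit of the glycoprotein hormones, was at 1.16 to 4.17 RPKM with ASA and 23.8 to 28.3 with DMSO, and the hormone genes Gh1, Tshb, Lhb and Fshb had no entry in the table. The corticotroph markers Pomc and Tbx19 were at no more than 2.62 RPKM, and Ptprc, Pecam1, Col1a1, Col1a2, Sox2, S100b and Gfap, which mark leukocytes, endothelium, fibroblasts and folliculostellate or stem cells, had no entry either.

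The Zfp genes were expressed at modest levels. Their median mean RPKM over the 6 libraries was 8.91, with quartiles of 4.47 and 16.03, against 23.3 for all other genes tested. The 5 highest were Zfp207, a kinetochore and spindle protein also called BuGZ, at a mean of 138 RPKM, Zfp706 at 119, Zfp330, a nucleolar protein, at 99.0, Zfp598, a ubiquitin ligase that recognises collided ribosomes, at 84.9, and Zfp385a, an RNA-binding partner of p53, at 74.0. In all, 220 Zfp genes passed the minimum mean RPKM of 0.5 that a gene needed to be tested. The 4 below it were Zfp286a (mean 0.340 RPKM), Zfp36l3 (0.125), Zfp804a (0.178) and Zfp773-ps1 (0.380). The tested genes had 1369.5 reads per library at the median, and the lowest and highest gene averaged 33.8 and 28531. Counting was less certain for 18 genes in which over 10% of the exon values were not whole reads; how these values arose was not tested. Of these, Zfp329 had 83.3% such values, Zfp598 had 22.2% and Zfp592 had 16.7%.

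Between ASA and DMSO, 3 Zfp genes rose, Zfp775, Zfp358 and Zfp319, and 1 fell, Zfp521. These were 4 of 220 genes, or 1.82%, whereas the same test called 11.2% of all 12502 genes tested, 6.21% higher and 4.99% lower. Over the 220 genes the median log2 fold change was -0.21, against -0.06 over all other genes, and 78 of them (35.5%) had a positive value, against 46.7% of the other genes. The test was limma on log2(RPKM + 0.1), with Benjamini-Hochberg adjustment over the 12502 genes and a threshold of 0.05, and fold changes are on that scale, which understates those of low genes. In RNA from a whole culture, fewer cells that express a gene and less RNA per cell cannot be told apart.

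Zfp775, on chromosome 4 of Rnor_6.0 at chr4:78248442-78256405, encodes a C2H2 protein. Its RPKM was 13.5, 23.9 and 25.7 in ASA replicates 1, 2 and 3, and 5.52, 8.10 and 6.54 in DMSO replicates 1, 2 and 3. All 3 ASA libraries lay above all 3 DMSO libraries, and the level was 3.02-fold higher with ASA (log2 fold change 1.595, SE 0.32, limma adjusted p = 0.0277). Zfp358, at chr12:2046472-2050490, was at 24.7, 48.8 and 26.3 RPKM with ASA and 9.90, 15.4 and 11.3 with DMSO. Here too the groups did not overlap, with ASA replicate 2 the highest, and the difference was 2.63-fold (log2 fold change 1.39, SE 0.32, limma adjusted p = 0.0374). Zfp319, whose only listed exon is at chr19:10121487-10123229, was at 14.9, 11.5 and 14.6 RPKM with ASA and 7.06, 5.996 and 6.26 with DMSO. It rose 2.101-fold (log2 fold change 1.07, SE 0.24, limma adjusted p = 0.0355), again without overlap and with ASA replicate 2 the lowest of its group.

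Zfp521, a regulator of neural and blood progenitors that binds early B-cell factors, fell. Its exons span chr18:5032808-5314503, and its RPKM was 15.9, 9.54 and 9.40 with ASA against 26.9, 40.6 and 29.6 with DMSO. Every ASA library was below every DMSO library, and the level was 2.82-fold lower with ASA (log2 fold change -1.49, SE 0.29, limma adjusted p = 0.0257). In each of its 7 listed exons the groups were apart in the same direction. In Zfp775 and Zfp358 they were apart in 1 of 2 listed exons each. The share of all exons in which the groups were apart is not given here. These 4 calls depended on which libraries entered the fit. The 4 genes kept their direction when any 1 library was left out, but the limma adjusted p then ran from 0.0155 to 0.138 for Zfp775, 0.0223 to 0.163 for Zfp358, 0.0121 to 0.179 for Zfp319 and 0.0159 to 0.125 for Zfp521. With ASA replicate 3, DMSO replicate 1 or DMSO replicate 3 left out, 0 of the 220 genes passed, and 22, 16 and 13 Zfp genes had an unadjusted limma p under 0.05 (10%, 7.27% and 5.91%, with 23.4%, 20.6% and 18.8% of all genes). Of all genes 0%, 0.728% (0.392% higher, 0.336% lower) and 0% passed in these fits. When DMSO replicate 2 was left out 1 Zfp gene passed, higher, with 5.06% of all genes (2.5% higher, 2.55% lower). When ASA replicate 1 was left out 10 were higher and 6 lower, with 16.1% of all genes (7.85% higher, 8.27% lower).

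**Figure D1:**
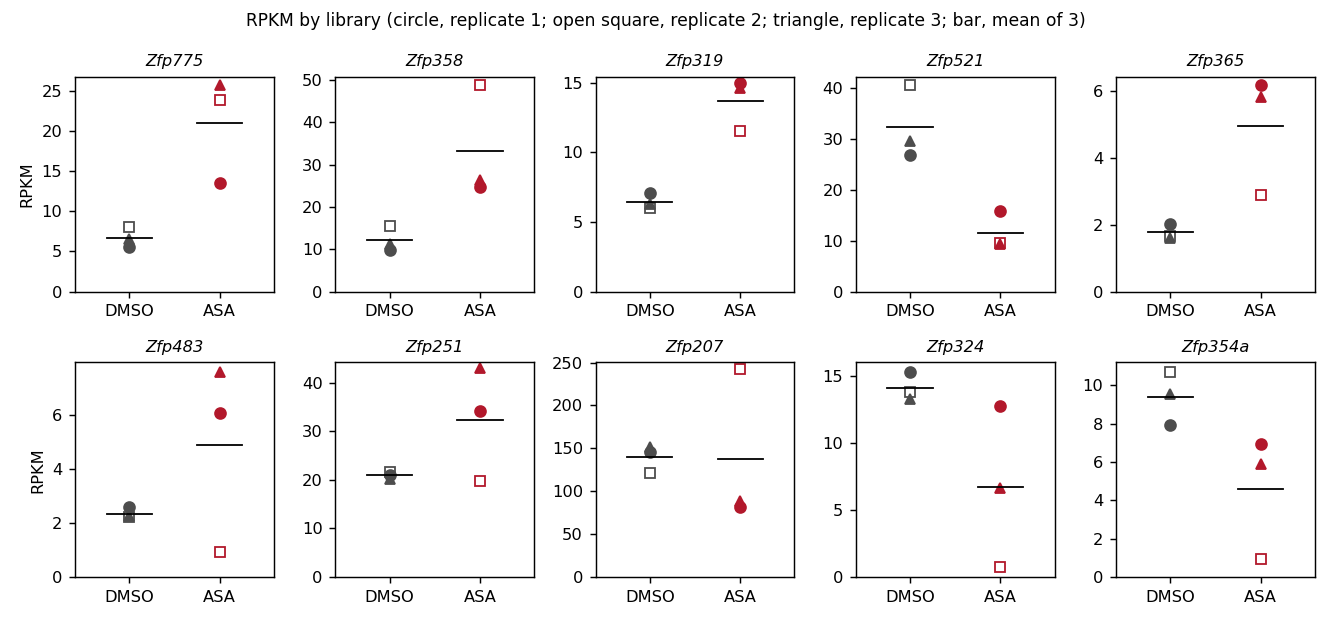
RPKM of 10 Zfp genes in each library (vertical axis, linear, its range set for each gene), DMSO in grey and ASA in red; the circle is replicate 1, the open square replicate 2, the triangle replicate 3 and the bar the mean of 3. Zfp775, Zfp358, Zfp319, Zfp521, Zfp365, Zfp324 and Zfp354a separate the groups. In Zfp483, Zfp251, Zfp207, Zfp324 and Zfp354a the open square of ASA lies away from the other ASA libraries.

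Library by library, the family did not move as a block with ASA. Relative to the DMSO mean of each gene, the median Zfp gene was at 0.13 on the log2 scale in ASA replicate 1 and 0.18 in ASA replicate 3, but at -0.99 in ASA replicate 2. The medians of the other genes were 0.08, 0.06 and -0.27 in the same libraries. ASA replicate 2 was the lowest of the 6 libraries for 150 of the 220 Zfp genes, or 68.2%, against 45.4% of the other genes and 45.8% of all genes. It was the highest for 22 (10%, with 20.1% of all genes). It lay under 1/4 of the DMSO mean for 48 of them (21.8%, with 9.18% of all genes), and ASA replicates 1 and 3 did so for 0 (1.72% and 2.42% of all genes). The reads in Zfp genes made up 0.5001% of the reads in ASA replicate 2 and 0.579% to 0.643% in the other libraries. This library's greater exon scatter and lower depth moved with the low Zfp values, and their part in them was not tested.

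**Figure D2:**
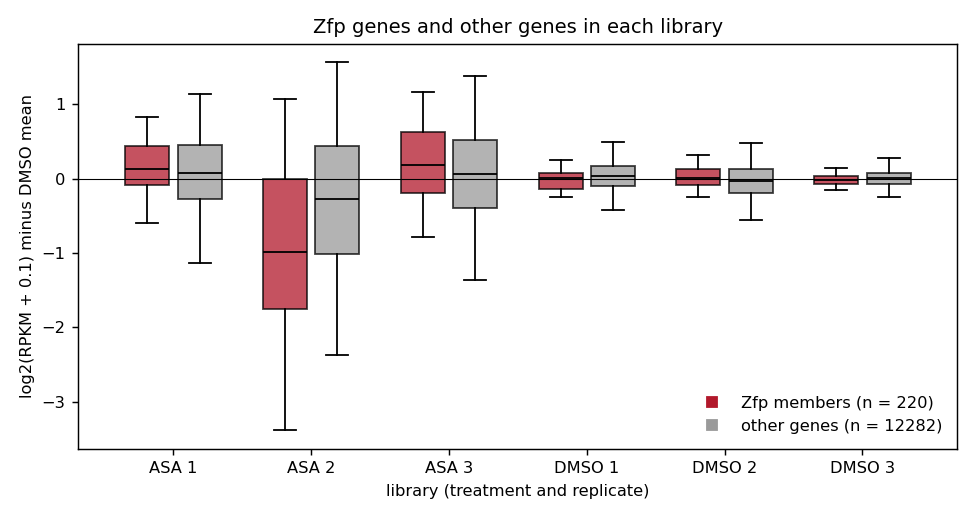
Deviation of each gene from its DMSO mean, as log2(RPKM + 0.1), in each library for the 220 Zfp genes tested (red) and the 12282 other genes (grey); boxes are quartiles with the median, and whiskers run from percentile 5 to percentile 95. The Zfp box of ASA replicate 2 has its median at -0.99, and the Zfp boxes of ASA replicates 1 and 3 have theirs at 0.13 and 0.18.

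Counted against the DMSO range, ASA replicate 1 lay above all 3 DMSO libraries for 112 Zfp genes (50.9%, with 42.8% of all genes) and below all 3 for 44 (20%, with 30.1%). ASA replicate 3 lay above for 115 (52.3%, with 43.5%) and below for 67 (30.5%, with 35.1%). In ASA replicate 2 the order was turned, with 43 above (19.5%, with 32.4%) and 158 below (71.8%, with 53.4%). ASA replicates 1 and 3 were both above for 87 Zfp genes (39.5%, with 33% of all genes) and both below for 31 (14.1%, with 22.2%).

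The spread within the ASA group was wider for Zfp genes than for other genes. The coefficient of variation among the 3 DMSO libraries was 9.41% for the median Zfp gene and 12.7% for the median other gene. Among the 3 ASA libraries it was 43.5% for the median Zfp gene and 28.02% for the median other gene. At the median, the log2 fold change had a standard error of 0.39 for Zfp genes and 0.29 for other genes, and both medians were 0.21 without ASA replicate 2. The fold changes themselves were spread less among Zfp genes by SD, at 0.66 against 0.82 for the other genes. By quartiles the difference was smaller, with -0.63 and 0.25 for Zfp genes and -0.51 and 0.41 for the other genes. The median absolute log2 fold change was 0.480 for Zfp genes and 0.463 for the other genes.

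In 44 Zfp genes, ASA replicates 1 and 3 were above all 3 DMSO libraries and ASA replicate 2 was below all 3; these were 20% of the family, against 8.65% of the other genes and 8.85% of all. Zfp483 was one of them, at 6.08 and 7.61 RPKM in ASA replicates 1 and 3, 0.916 in ASA replicate 2 and 2.60, 2.20 and 2.25 in the DMSO libraries. Zfp612 was another, at 18.2 and 14.3 RPKM in ASA replicates 1 and 3 and 3.13 in ASA replicate 2, with the DMSO libraries between 8.37 and 10.3. Both were picked with their values known, as were Zfp770, Zfp324, Zfp35, Zfp46, Zfp280c, Zfp280d and Zfp799. The opposite pattern was present in 2 Zfp genes (0.909%, with 1.76% of all genes), of which Zfp207 was the more abundant. Groups that did not overlap were found for 33 Zfp genes with ASA higher (15%, with 19.9% of all genes) and 29 with ASA lower (13.2%, with 18.8% of all genes).

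Several Zfp genes were far lower in ASA replicate 2 than in any other library. Zfp770, with 1 listed exon, was at 0.301 RPKM there (42 reads), at 6.67 and 6.75 in ASA replicates 1 and 3, and at 7.27, 9.02 and 8.03 with DMSO. Zfp324 was at 0.777 RPKM in ASA replicate 2, 12.8 and 6.65 in ASA replicates 1 and 3, and 15.3, 13.8 and 13.3 with DMSO. The same was seen in Zfp35, at 1.01 RPKM against 13.3 and 9.72 in the other ASA libraries and 12.3 to 13.6 with DMSO. Zfp46 was at 1.79 RPKM in ASA replicate 2, at 30.8 and 23.2 in the other ASA libraries and at 20.7 to 25.3 with DMSO. None of these 4 passed the test (limma adjusted p between 0.224 and 0.499), although their fitted log2 fold changes ran from -1.74 to -1.01. Other Zfp genes went the other way in this library: Zfp280c was at 43.5 RPKM there, at 10.8 and 18.3 in ASA replicates 1 and 3 and at 11.1 to 12.2 with DMSO. Zfp280d, a related gene, was at 59.6 RPKM, with 18.4 and 28.3 in the other ASA libraries and 16.2 to 17.5 with DMSO.

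The direction of the family turned when ASA replicate 2 was left out. The median log2 fold change was then 0.13, against 0.06 over the other genes, and 138 of the 220 Zfp genes (62.7%) had a positive value, against 54.7% of the other genes. Of the 64 genes that changed sign, 62 went from negative to positive. Now 26 Zfp genes were higher with ASA and 2 were lower, 28 in all or 12.7%, where 20.9% of all genes passed, 12.9% higher and 8.07% lower. The 4 calls of the full comparison were all among the 28. The share of Zfp genes called was below that of all genes in both comparisons.

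The 26 higher genes rose 1.47-fold to 3.28-fold without ASA replicate 2, with a median of 1.79-fold, and limma adjusted p over the 28 ran from 0.0104 to 0.0490. In ASA replicate 2, 15 of the 26 were above all DMSO libraries, 5 lay within their range and 6 were below all of them, where 32.4% of all genes were above and 53.4% below. The 26 were chosen against the same DMSO libraries, so this is a description and no independent check. Zfp365, which encodes a centrosomal protein that binds DISC1, had the highest fold change: it was at 6.18 and 5.81 RPKM in ASA replicates 1 and 3, 2.90 in ASA replicate 2 and 2.01, 1.67 and 1.62 with DMSO. All ASA libraries were above all DMSO libraries, and the difference was 3.28-fold without ASA replicate 2 (limma adjusted p = 0.0104) and 2.59-fold with it (adjusted p = 0.0556). Zfp142 was at 36.7, 45.3 and 39.3 RPKM in ASA replicates 1, 2 and 3 and at 26.0, 24.9 and 24.7 with DMSO. ASA replicate 2 was the highest of its libraries (1.505-fold without it, limma adjusted p = 0.0293; 1.596-fold with it, adjusted p = 0.0523). Zfp362 had the same order, at 13.7, 32.1 and 16.7 RPKM with ASA and 9.01, 9.83 and 7.13 with DMSO (1.76-fold without ASA replicate 2, limma adjusted p = 0.0412), as had Zfp710 (1.47-fold, adjusted p = 0.0486).

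In other genes of the 26, ASA replicate 2 did not follow. Zfp251 was at 34.1 and 43.0 RPKM in ASA replicates 1 and 3, 19.7 in ASA replicate 2 and 21.1, 21.7 and 20.2 with DMSO (1.82-fold without ASA replicate 2, limma adjusted p = 0.0176). Zfp483, given above, was 2.83-fold higher without ASA replicate 2 (limma adjusted p = 0.0130). Zfp786, at 3.20 and 4.16 RPKM in ASA replicates 1 and 3, was at 0.700 in ASA replicate 2 and at 1.42 to 1.83 with DMSO (2.21-fold, limma adjusted p = 0.0318). The gene that joined Zfp521 among those lower was Zfp207, at 81.4 and 88.0 RPKM in ASA replicates 1 and 3, 242 in ASA replicate 2 and 146, 121 and 152 with DMSO. It was 1.64-fold lower without ASA replicate 2 (limma adjusted p = 0.0234), and ASA replicates 1 and 3 were below all DMSO libraries in all 11 exons. These exons belong to a gene that passed in the same libraries, so they are no independent check. Of all genes, 22.2% had ASA replicates 1 and 3 below all DMSO libraries, and the share of all exons is not given here. With ASA replicate 2 included, the limma adjusted p of Zfp207 was 0.752 and the groups were apart in 1 of the 11 exons.

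**Figure D3:**
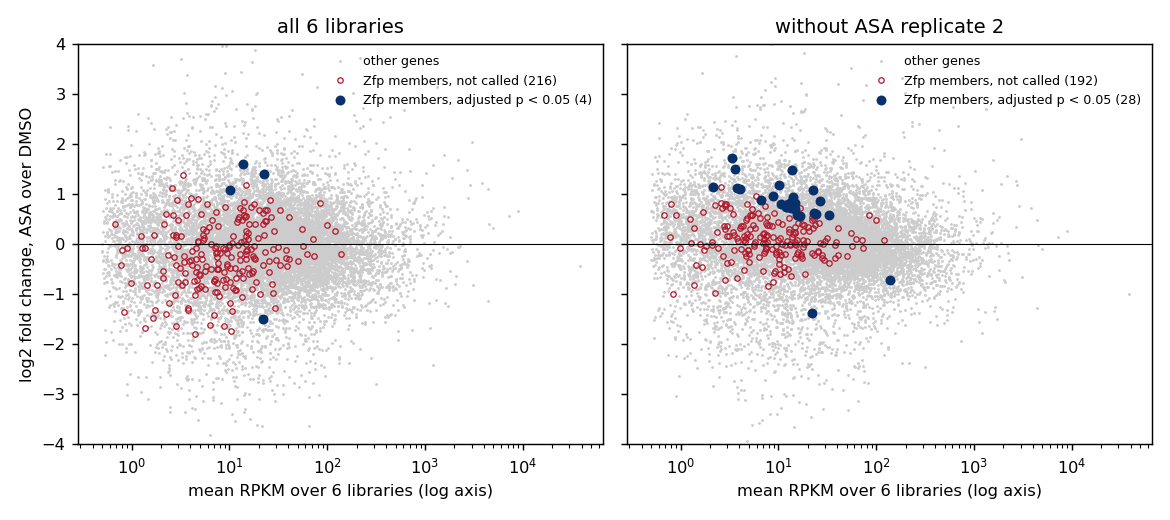
Log2 fold change, ASA over DMSO, against mean RPKM over 6 libraries (log axis) for all 12502 genes tested; grey points are other genes, red circles Zfp genes that did not pass and blue points Zfp genes that passed. With all libraries 4 Zfp genes passed and 216 did not, and without ASA replicate 2 there were 28 and 192; 9 and 10 other genes lie outside the axis limit of 4 in the 2 panels, and 0 Zfp genes do.

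Since Zfp genes were lower in level than most genes, they were set beside other genes of similar mean RPKM. With all 6 libraries, the median log2 fold change of Zfp genes was below that of the other genes in each of 6 bins of level. At 4 to 8 RPKM it was -0.39 for 56 Zfp genes and -0.07 for the other genes, and at 8 to 16 RPKM it was -0.13 for 59 Zfp genes and -0.02 for the others. At 16 RPKM or more the values were close, -0.10 for 56 Zfp genes and -0.07 for the others. In the lowest bins, the 6 Zfp genes at 0.5 to 1 RPKM had a median of -0.27 and the 10 at 1 to 2 RPKM one of -0.55. At 2 to 4 RPKM the median of 33 Zfp genes was -0.25, with -0.09 for the others. The SD of the log2 fold change was smaller for Zfp genes in each bin. It was 0.59 against 0.94 at 4 to 8 RPKM, and 0.59 against 0.74 at 16 RPKM or more. The distance between quartiles was also smaller in each bin, though close at 1 to 2 RPKM (1.13 against 1.15).

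The order of the medians was mixed when that library was left out. Zfp genes had the higher median at 0.5 to 1 RPKM (0.36 against 0.23), 2 to 4 RPKM (0.25 against 0.09), 4 to 8 RPKM (0.16 against 0.10) and 16 RPKM or more (0.07 against 0.02), and the lower at 8 to 16 RPKM (0.12 against 0.16) and 1 to 2 RPKM (-0.01 against 0.29). The share of Zfp genes called was then below that of other genes in each bin except 8 to 16 RPKM. It was 23.7% there, against 21.01%, and 3.57% at 4 to 8 RPKM, against 18.5%. At 2 to 4 RPKM it was 12.1% against 20.3%, and at 16 RPKM or more 14.3% against 23.04%. At 0.5 to 1 and 1 to 2 RPKM it was 0%, against 8.93% and 12.3%. With all 6 libraries the share was lower for Zfp genes in each bin. It was 0% against 10.8% at 4 to 8 RPKM and 3.57% against 12.7% at 16 RPKM or more. In ASA replicate 2 alone, the deviation from the DMSO mean was -1.37 for the median Zfp gene at 4 to 8 RPKM, -0.87 at 8 to 16 RPKM and -0.10 at 16 RPKM or more. The other genes were at -0.41, -0.34 and -0.22 in these bins.

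**Figure D4:**
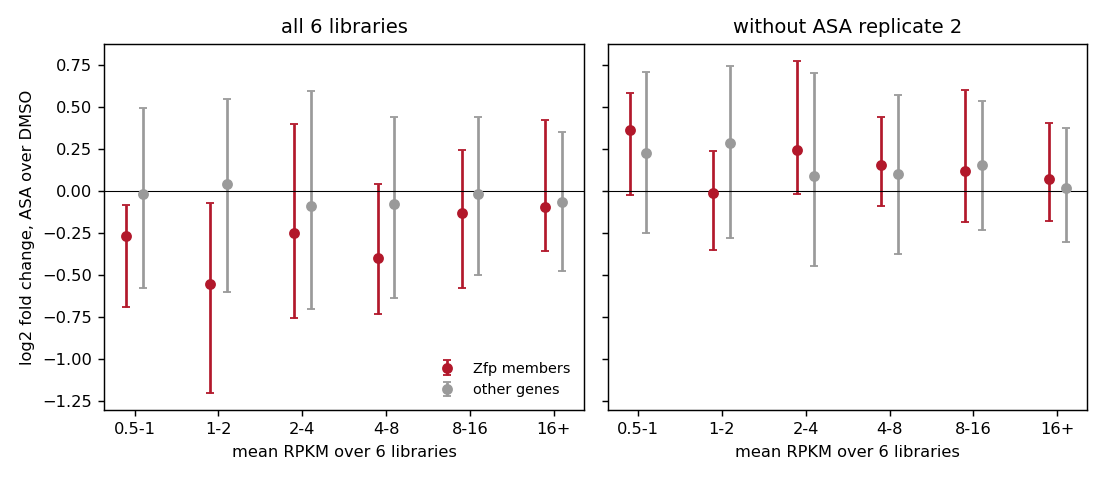
Median log2 fold change, ASA over DMSO, with bars for the quartiles, in 6 bins of mean RPKM for Zfp genes (red) and other genes (grey), with all 6 libraries and without ASA replicate 2. With all libraries the red medians lie below the grey ones in each bin, at -0.39 and -0.07 for 4 to 8 RPKM, and without ASA replicate 2 their order is mixed.

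What the Zfp genes shared beyond their symbol was their structure in the table. The longest listed exon held 82.3% of the listed length of the median Zfp gene, against 29.2% for the median other gene. Zfp genes had 4 listed exons at the median, against 7, and 38 of the 224 had 1. This description was chosen after the data were seen. In ASA replicate 2 the deviation followed this measure: the 148 Zfp genes whose longest exon held 60% or more of the length had a median of -1.22, and the 72 others one of -0.23. The other genes of the table were at -0.49 and -0.23 in these classes. In ASA replicates 1 and 3 the 148 Zfp genes were at 0.14 and 0.19 and the 72 at 0.12 and 0.08.

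The difference was also present among genes of similar level. At 2 to 16 RPKM, in ASA replicate 2, 112 Zfp genes with a long exon of at least 60% were at a median of -1.25 and the other genes of that kind at -0.72. The 36 Zfp genes with less were at -0.36, and the other genes at -0.28. At 16 RPKM or more, the 22 Zfp genes with at least 60% were at -0.80 and the other genes at -0.33, whereas the 34 Zfp genes with less were at 0.21 and the other genes at -0.21. Within the 186 tested Zfp genes with several listed exons, the longest exon was not lower than the rest in that library: its median deviation was -1.0002, against -1.05 for the remaining exons together. Of the Zfp exons, 15 of 1088 in tested genes had 0 reads in ASA replicate 2 (1.38%), where 0.384% of other exons did, and 0 Zfp exons had 0 reads in the other 5 libraries.

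**Figure D5:**
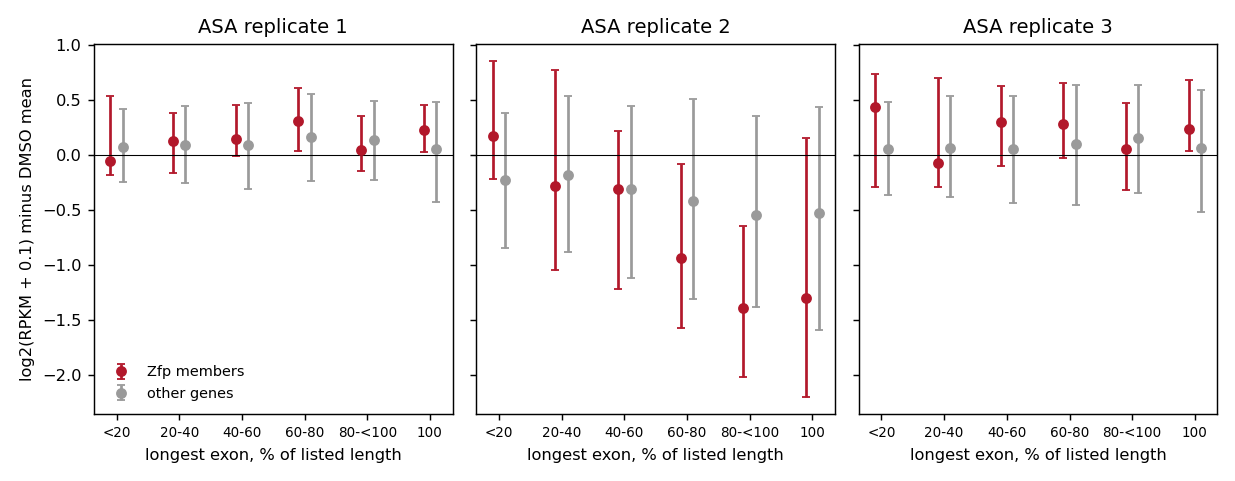
Median deviation from the DMSO mean, as log2(RPKM + 0.1), with bars for the quartiles, in bins of the longest exon's percent of the listed length for Zfp genes (red) and other genes (grey) in each ASA library. In ASA replicate 2 the Zfp medians reach -1.39 in the bin from 80% to under 100%, with the other genes at -0.55, and in ASA replicates 1 and 3 they are at 0.04 and 0.05 there.

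By role, the 13 tested members that bind RNA or act on ribosomes and the spindle gave no call in either direction, where 11.2% of all genes passed, and their median log2 fold change was -0.04. Without ASA replicate 2 there was 1 higher, Zfp622, and 1 lower, Zfp207 (12.9% and 8.07% of all genes), with a median of 0.07. Zfp622, needed for maturation of the large ribosomal subunit, was at 19.7, 15.5 and 18.9 RPKM with ASA and 11.7, 8.96 and 9.38 with DMSO. The groups did not overlap, at 1.80-fold with all libraries (limma adjusted p = 0.0562) and 1.93-fold without ASA replicate 2 (adjusted p = 0.0209). Zfp593, which acts in export of the same subunit, was at 25.02, 29.6 and 24.8 RPKM with ASA and 19.98, 15.2 and 16.8 with DMSO (1.53-fold, limma adjusted p = 0.0961). Zfp598 was at 77.9, 149 and 102 RPKM against 52.5, 69.4 and 58.6 (1.77-fold, limma adjusted p = 0.0798). Each of these 3, which had the smallest p of the list, was higher in all ASA libraries (19.9% of all genes were). Zfp638, a nuclear protein that silences retroviral DNA, had a log2 fold change of -0.56 (limma adjusted p = 0.321), and Zfp326, part of a complex that couples transcription to splicing, one of -0.48 (0.384). Zfp706 had one of 0.26 (0.422).

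Among 33 tested zinc finger transcription factors listed as lacking a KRAB domain, 0 were higher and 1, Zfp521, was lower (6.21% and 4.99% of all genes), with a median log2 fold change of -0.28. Without ASA replicate 2 there were 3 higher and 1 lower (12.9% and 8.07% of all genes), and the median was -0.06. Zfp592, which forms a chromatin complex with Zmynd8, was at 25.8, 31.1 and 29.2 RPKM with ASA and 18.0, 18.7 and 17.0 with DMSO (1.59-fold, limma adjusted p = 0.0610). Zfp704 was at 13.4, 8.25 and 12.2 RPKM with ASA and 6.87, 6.94 and 5.89 with DMSO (1.68-fold, limma adjusted p = 0.119). Both were higher in all ASA libraries (19.9% of all genes were) and passed without ASA replicate 2, at limma adjusted p = 0.0353 and 0.0205. Several of the 33 were lower in all ASA libraries without passing. Their number is not given here, so it is not compared with the 18.8% of all genes lower without overlap, called or not. Among these lower members the smallest p were those of Zfp407 and Zfp618. Zfp407 was at 2.09, 0.592 and 1.18 RPKM against 3.84, 2.62 and 3.24 (limma adjusted p = 0.0921). Zfp618, a partner of the hydroxymethylcytosine reader Uhrf2, was at 8.53, 3.71 and 3.74 against 10.4, 11.1 and 9.03 (limma adjusted p = 0.110). Zfp580 had a log2 fold change of 0.71 (limma adjusted p = 0.115).

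The 13 tested KRAB genes tied to imprinting, retroelements or repression gave 0 calls in the full comparison, where 11.2% of all genes passed, with a median log2 fold change of -0.18. Leaving out ASA replicate 2 gave 2 higher and 0 lower (12.9% and 8.07% of all genes), and the median was 0.09. Zfp316 was at 5.17, 4.04 and 6.85 RPKM with ASA and 2.75, 2.86 and 2.59 with DMSO (limma adjusted p = 0.0927, and 0.0251 without ASA replicate 2). Zfp746, the parkin substrate also called PARIS, was at 17.7, 14.7 and 20.7 RPKM against 11.4, 12.6 and 11.5 (0.140, and 0.0341 without ASA replicate 2). Both were higher in all ASA libraries (19.9% of all genes were), as was Zfp777 (log2 fold change 0.41, limma adjusted p = 0.205). Zfp57, which keeps methylation at imprinted regions, was at 20.1 and 15.9 RPKM in ASA replicates 1 and 3, 4.20 in ASA replicate 2 and 20.5, 21.8 and 19.6 with DMSO (limma adjusted p = 0.303). Zfp354a, a kidney repressor also called Kid-1, was at 6.95, 0.937 and 5.88 RPKM in ASA replicates 1, 2 and 3 and 7.92, 10.7 and 9.53 with DMSO (limma adjusted p = 0.212). In Zfp189, too, ASA replicate 2 was far below the rest, at 1.57 RPKM against 10.8 and 10.1 in the other ASA libraries and 12.1 to 13.3 with DMSO. Zfp354a and Zfp189 were lower in all ASA libraries (18.8% of all genes were). The 161 tested Zfp genes in none of these lists had a median of -0.21, with 3 higher and 0 lower (6.21% and 4.99% of all genes), and 20 higher and 0 lower without ASA replicate 2 (12.9% and 8.07%).

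The genes through which KRAB proteins act were counted in the same fit. Of 30 cofactor and heterochromatin genes, 0 were higher and 3 were lower, Hdac1 and Chd3 among them, where 6.21% and 4.99% of all genes were, and the median log2 fold change was -0.40. With ASA replicate 2 left out, again 0 were higher and 3 lower (12.9% and 8.07% of all genes), and the median was -0.17. Trim28, the KRAB corepressor, was at 72.5, 78.3 and 59.2 RPKM with ASA and 102, 81.9 and 87.9 with DMSO (log2 fold change -0.38, limma adjusted p = 0.219). Setdb1 was at 26.7, 27.4 and 27.9 RPKM against 24.8, 22.4 and 23.4 (0.22, limma adjusted p = 0.438). Hdac1, a deacetylase, was at 8.76, 7.15 and 6.86 RPKM against 22.1, 16.2 and 20.1 (2.54-fold lower, limma adjusted p = 0.0211), and reads shared with near-identical copies would make this value uncertain. Chd3, a NuRD helicase, was at 62.1, 43.6 and 59.8 RPKM against 135, 97.9 and 116 (2.11-fold lower, limma adjusted p = 0.0274). With 1 library left out at a time, limma adjusted p reached 0.139 for both Hdac1 and Chd3. Dnmt1, Suv39h2 and Hdac2 had log2 fold changes of -1.26, -1.33 and -0.81 without passing (limma adjusted p = 0.0580, 0.0563 and 0.0732).

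Other zinc finger symbols gave the following values beside those of the Zfp genes, and the differences between families were not tested. Of all genes, 6.21% were higher and 4.99% lower with all libraries, and 12.9% and 8.07% without ASA replicate 2. Of 15 tested Zscan and Zkscan genes 0 passed, and 2 were higher without ASA replicate 2. Their medians in ASA replicates 1, 2 and 3 were 0.32, -1.23 and 0.31, with the Zfp medians at 0.13, -0.99 and 0.18. The 38 Zbtb genes had 2 higher and 0 lower, and 9 higher and 0 lower without ASA replicate 2, with a median of -0.31 in ASA replicate 2. The 20 Klf and Sp genes had 2 higher and 0 lower, and 5 higher and 1 lower without ASA replicate 2, with a median of 0.82 in that library. The 6 Znf genes had 0 higher and 0 lower, and 1 and 1 without ASA replicate 2, with a median of -0.64 there. The 18 Zc3h genes had 1 and 0, and 4 and 0 without it, with a median of 0.06 there. The 8 Zfyve genes had 2 and 1 in both fits, and the 20 Zdhhc genes 2 and 0, and 6 and 0. Their medians in ASA replicate 2 were 0.70 and 0.17.

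By position, 52 of the tested Zfp genes lay on chromosome 1, and 62 lay in 11 runs of at least 4 with no more than 500000 bases between neighbours. The run with the most members, 9, was at chr4:77497551-78256405 and held Zfp775, Zfp746, Zfp777 and Zfp786; its median log2 fold change was 0.12, and 0.38 without ASA replicate 2, when 3 of the 9 were higher (12.9% of all genes). A run of 7 at chr1:198690794-199330800 had a median of -0.86, and 0.13 without ASA replicate 2. Another run of 7, at chr7:15024895-15788259, held Zfp799 and had a median of -0.54, and 0.14 without ASA replicate 2. Each of its 7 members was below its DMSO mean in ASA replicate 2, between -3.13 and -0.17 on the log2 scale. So was every member of the runs at chr8:21381792-21617733 and chr10:36311346-36599615. Of all tested genes, 165 of the 220 Zfp genes and 7446 of the 12282 others were below it there. Zfp799 was at 0.446 RPKM in that library, at 6.74 and 6.47 in ASA replicates 1 and 3, and at 4.29, 5.01 and 4.79 with DMSO. ASA replicates 1 and 3 were above all DMSO libraries for this gene and ASA replicate 2 was below them.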

How the data were processed

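RNA of 3 ASA and 3 DMSO libraries was compared. The deposited values are log2 RPKM per exon, made by the authors. Per the submitters' processing notes, the build was Rnor_6.0 and the tools were edgeR 3.26.8, TopHat2 2.1.0 with Bowtie2, cutadapt 1.14 and Trim Galore 0.4.1, and the labels' protocols name a polyA directional kit. How exons were counted, whether strand was used and which annotation applied are points not given in the sources used here, so reads of antisense partners cannot be told apart.

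The log was undone, a constant of 0.00292 reads per 1000000 was subtracted and reads were recovered with the fitted depth, after which 95.7% to 96.8% of values were whole reads within 0.02 read. Every exon in the table had over 10 reads in at least 4 libraries. Reads were summed over a gene's exons and divided by their length and the depth. limma 3.58.1 (lmFit, eBayes with trend, two-sided, R 4.3.3) was fitted to log2(RPKM + 0.1) for the 12502 genes whose mean RPKM reached 0.5, without covariates, and the code was tested on simulated data. The main fit was not a count model, since the deposited values are log2 RPKM. Linear modelling of the recovered reads with limma's voom was run as an alternative.

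No library was a copy of another: gene counts of same-group pairs differed by a chi-square of 119 to 1083 per degree of freedom. The members, lists and tests were chosen with earlier results of these data known. Named were members that passed with a mean RPKM of at least 1 and no overlap between groups, the members of each list with the smallest p (up to 6), the 5 highest members, and among cofactors the 6 with the smallest p, Trim28 and Setdb1. A gene that this rule takes is not reported here. Zfp365, Zfp483, Zfp786, Zfp612, Zfp251, Zfp142, Zfp710, Zfp324, Zfp770, Zfp35, Zfp46, Zfp280c, Zfp280d, Zfp362 and Zfp799 were chosen after their values were seen. A planned description by protein class was replaced by exon structure.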

Additional observations from a re-analysis of the deposited data

How the results depend on the processing

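The full comparison had 3 Zfp genes higher and 1 lower. With other pseudocounts (0.5 and 1), no filter on level, a minimum of 2 RPKM, median centring or no variance trend, 3 or 4 were higher and 1 lower. Of all genes, 9.03% (no variance trend) to 12.8% (median centring) passed in these fits. Linear modelling of the recovered reads (limma's voom) gave 5 higher and 1 lower (2.73% of Zfp genes, with 11.1% of all genes). The median exon and the longest exon as the gene's value gave 1 higher and 1 lower each. These were 0.909% of Zfp genes in both, with 7.64% (median exon) and 5.39% (longest exon) of all genes. Library quality weights, which gave ASA replicate 2 a weight of 0.105 and DMSO replicate 3 one of 8.71, gave 54 higher and 20 lower (33.6% of Zfp genes, with 46.0% of all genes), with a median log2 fold change of 0.0726. Leaving out 1 library at a time gave 0 to 26 higher, 0 to 6 lower and a median from -0.41 to 0.13, positive only without ASA replicate 2; the cause was not tested.

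Of the 47 genes followed, 5 reversed. With 1 library left out at a time, log2 fold changes ran from -0.71 to 0.0731 for Zfp207 (the highest with ASA replicate 1 left out, and 0.02 with ASA replicate 3 left out), and from -0.0618 (without ASA replicate 3) to 1.1436 for Zfp786. For Zfp612 they ran from -0.45 (without ASA replicate 1) to 0.81, with -0.27 when ASA replicate 3 and -0.04 when DMSO replicate 3 was left out, and the longest exon gave -0.13. They ran from -1.75 to 0.27 for Zfp46 and from -1.34 to 0.49 for Zfp799, both positive without ASA replicate 2, and library weights gave 0.0764 and 0.31. No paired analysis was possible because the labels give the libraries no shared replicate numbers. With 3 libraries a group and 1 of them apart, the number of libraries limits what these values can show. Library weights were estimated gene by gene.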
